A study of Homo sapiens with 16 samples.

Results

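Cultures of islets made from HUES08, an established human embryonic stem cell line, were treated with Ly-294002, an inhibitor of phosphoinositide 3-kinases (PI3K), and compared with cultures given the solvent DMSO. The comparison rests on the 2 libraries labelled Ly-294002 and the 2 labelled DMSO, of 16 libraries in all. The 12 libraries of 6 other compounds served as background. Each agent was present during stage 5 and for 7 days of stage 6, and all cultures were wild type and carried the same batch label. Ly-294002 was given at 120 nM, colchicine at 10 nM, vardenafil and rimonabant at 125 nM each, epirizole at 2.5 uM, moxifloxacin at 1.1 uM and rottlerin at 1.23 uM, so doses were not matched between compounds. All libraries came from 1 cell line, and no label tells whether replicate libraries were separate differentiations. The p-values thus rest on how far replicate libraries differed, which may be technical spread. The title of 1 Ly-294002 library is spelled Ly-294022, while its treatment label and library name read Ly-294002.

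PI3K enzymes are lipid kinases that insulin and growth factor receptors engage through regulatory subunits, and the phosphoinositide they make recruits the kinase AKT to the membrane. AKT restrains the FOXO transcription factors and, through mTOR, promotes protein and lipid synthesis. Ly-294002 competes with ATP at the catalytic subunits, also acts on other kinases and on bromodomain proteins, and is usually applied to cells at micromolar concentrations. In the pancreas the pathway acts in the growth of beta cells and in the choice of progenitors between duct and endocrine fates.

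Ly-294002 1 was the deepest of the 16 libraries, with 30701868 reads, and DMSO 1 the shallowest, with 23294377. Levels are given as CPM, counts scaled to library size with TMM normalisation, and 3 reads, the smallest number told from 0, were 0.0977 CPM in Ly-294002 1 and 0.118 CPM in Ly-294002 2. Endocrine content differed between the 2 Ly-294002 libraries. A score made of the mean log2 CPM of 9 endocrine and granule genes was 1.87 in Ly-294002 1, the second lowest of the 16 libraries, and 3.07 in Ly-294002 2, against 3.75 and 2.61 in the DMSO libraries. Several beta cell genes were at low levels in both. INS, the insulin gene, was at 0.782 and 2.47 CPM, and IAPP, MAFA, G6PC2 and SIX3 were the 4 of 23 listed beta cell genes too low to be tested. Pancreatic and epithelial genes were plain, with the transcription factor PDX1 at 22.6 and 48.1 CPM and KRT19, a duct keratin, at 441 and 420 CPM. Genes listed for other tissues were plain as well. Summed over members, the liver and gut list was at 9157 and 10300 CPM and the mesenchyme list at 4756 and 3725 CPM. The beta cell list was at 141 and 193 CPM, all 3 scaled to library totals without TMM. The median deviation of the 10% most GC-rich genes minus that of the 10% least GC-rich (log2, relative to the mean of all libraries) was -0.18 and -0.13 in the Ly-294002 libraries and -0.35 and -0.42 in the DMSO libraries. The DMSO values were the lowest of the 16 libraries, with Epirizole 2 next at -0.23. The library most like each Ly-294002 library over all tested genes was Epirizole 2, not the other Ly-294002 library.

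With 2 libraries against 2, no gene passed the test between Ly-294002 and DMSO. The edgeR quasi-likelihood test called 0 of 24515 genes at an adjusted p under 0.05 (0%), and the smallest adjusted p was 0.762. DESeq2 called 0 as well (0%), with a smallest adjusted p of 0.0718. At an unadjusted p under 0.05, edgeR had 599 genes higher (2.44%) and 551 lower (2.25%) in Ly-294002, and DESeq2 had 959 in both directions. The edgeR total was 1150 (4.69%), where 1226 would be expected by chance if no gene differed. An unadjusted p under 0.05 thus does not by itself mark a gene as changed. Both Ly-294002 libraries lay above both DMSO libraries in 4779 genes (19.5%) and below them in 4782 (19.5%). The median size of the difference was 0.18 on the log2 scale and the median standard error (SE) 0.28. These percentages over all genes are the background for the counts below. No difference from DMSO given below passed this edgeR test over all genes, and alternative fits are given at the end.

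The 4 genes set as markers for these cultures were ATF3, SOX9, SPP1 and PLCB1, and each lay below DMSO in both Ly-294002 libraries. They were picked with earlier results of these data known, so their direction is a description. ATF3 (ENSG00000162772, chr1:212565334-212620777 on the plus strand of GRCh38, protein coding) encodes a stress-induced transcription factor. It was at 122 and 114 CPM in DMSO and at 86.6 and 65.7 CPM in Ly-294002. The groups did not overlap, and the difference was -0.64 (log2, SE 0.12, 95% confidence interval -0.90 to -0.37, unadjusted p = 1.17e-04, edgeR adjusted p = 0.762).

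PLCB1 (ENSG00000182621, chr20:8077251-8968360, plus strand) encodes phospholipase C beta 1, which cleaves the phosphoinositide that PI3K also uses as substrate. It was at 43.9 and 52.1 CPM in DMSO and at 30.4 and 33.9 CPM in Ly-294002, again without overlap, a difference of -0.58 (SE 0.11, interval -0.82 to -0.34). SOX9 (ENSG00000125398, chr17:72121020-72126420, plus strand), the transcription factor of duct and pancreatic progenitor cells, was at 72.7 and 72.9 CPM in DMSO and at 33.9 and 49.2 CPM in Ly-294002. Its difference was -0.81 (SE 0.31, interval -1.50 to -0.12). SPP1 (ENSG00000118785, chr4:87975650-87983426, plus strand), which encodes the secreted protein osteopontin made by duct cells, was at 19.8 and 27.1 CPM in DMSO and at 15.2 and 14.8 CPM in Ly-294002, a difference of -0.65 (SE 0.30, interval -1.31 to 0.01). In bulk RNA, fewer cells of a type and less RNA per cell cannot be told apart.

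The same 4 genes lay low in most of the other compounds too. Against the same 2 DMSO libraries, ATF3 differed by -0.67 in moxifloxacin, -0.59 in rimonabant, -0.50 in vardenafil, -0.47 in rottlerin, -0.46 in epirizole and -0.03 in colchicine. PLCB1 differed by -0.11 in vardenafil and by -0.40 to -0.64 in the other 5. These contrasts share the DMSO libraries. Against the mean of the 6 compounds, which leaves DMSO out, Ly-294002 differed by -0.18 in ATF3 (SE 0.10, interval -0.39 to 0.02), -0.17 in PLCB1 (SE 0.09, -0.36 to 0.02), -0.42 in SOX9 (SE 0.24, -0.96 to 0.13) and -0.23 in SPP1 (SE 0.24, -0.75 to 0.28). Each of these intervals holds 0. Without Ly-294002 2 the ATF3 difference from the 6 compounds was 0.00, and without Ly-294002 1 the SOX9 difference from them was -0.18.

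**Figure D1:**
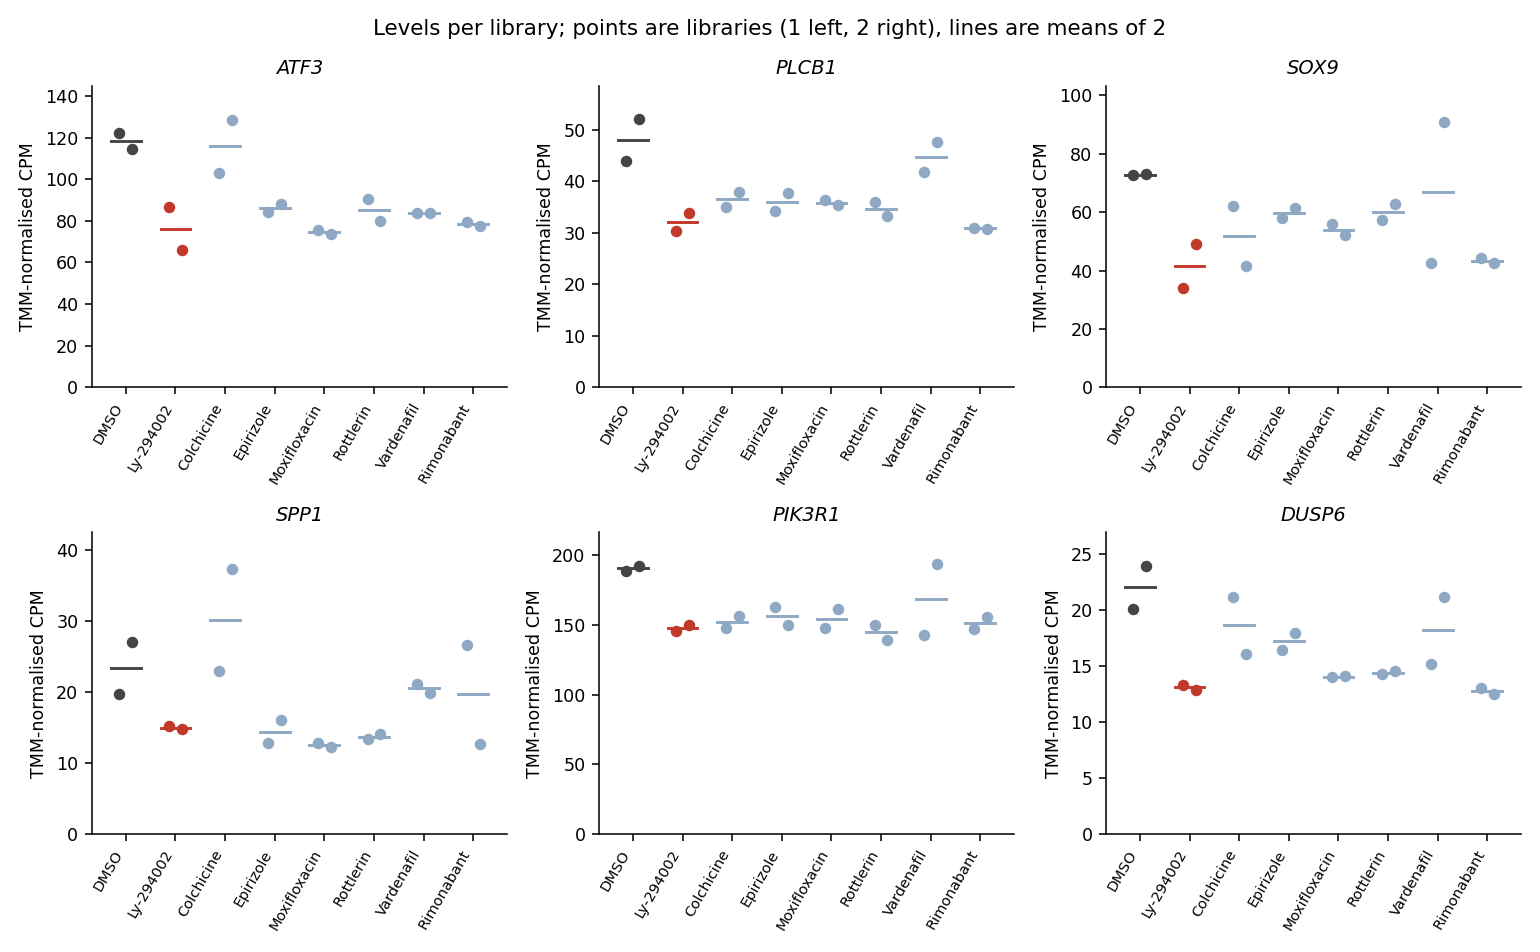
TMM-normalised CPM of ATF3, PLCB1, SOX9, SPP1, PIK3R1 and DUSP6 in each of the 16 libraries (points) with the mean of each group of 2 (lines), on axes that start at 0. Both Ly-294002 libraries sit below both DMSO libraries in all 6 panels, and most libraries of the other compounds sit there as well, such as ATF3 at 73.5 CPM in Moxifloxacin 2.

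Immediate-early genes, the transcription factors and feedback regulators that growth factor signalling induces within minutes, lay lower in Ly-294002 as a group. Of 24 tested members 22 lay below DMSO and 2 above, 20 of them without overlap, and 12 had an unadjusted p under 0.05, all lower. The median difference was -0.45, against 0.00 over all tested genes, and by library it was -0.32 in Ly-294002 1 and -0.58 in Ly-294002 2. With Ly-294002 1 left out, the median was -0.59. With Ly-294002 2 left out it was -0.33.

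DUSP6, the phosphatase that switches off ERK, was at 20.1 and 23.9 CPM in DMSO and at 13.3 and 12.8 CPM in Ly-294002, a difference of -0.75 (SE 0.17, interval -1.11 to -0.39). KLF4, a transcription factor of epithelial and pluripotent cells, was at 35.9 and 42.3 CPM in DMSO and at 29.8 and 25.2 CPM in Ly-294002, a difference of -0.51 (SE 0.13). EGR1, a zinc-finger factor induced through ERK, was at 499.9 and 558 CPM in DMSO and at 415 and 353 CPM in Ly-294002 (-0.46, SE 0.14). The groups did not overlap in any of the 3. EGR3 (-0.90, SE 0.26), FOSB (-0.60, SE 0.27), NR4A2 (-0.64, SE 0.26), EGR2 (-0.61, SE 0.24) and FOS (-0.45, SE 0.20) lay on the same side. MYC, the growth-promoting transcription factor, was spread from 12.9 CPM in Ly-294002 1 to 5.42 in Ly-294002 2, on either side of DMSO at 7.54 and 8.86.

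The median of this list lay below DMSO in the other compounds as well, at -0.39 in moxifloxacin, -0.30 in vardenafil, -0.29 in rimonabant, -0.25 in epirizole, -0.20 in rottlerin and -0.003 in colchicine, all against the same DMSO libraries. Against the mean of the 6 compounds, 22 of 24 members lay lower in Ly-294002 with a median of -0.16, and 2 had an unadjusted p under 0.05, KLF4 (-0.31, SE 0.10) and JUND (-0.26, SE 0.10). Without Ly-294002 2 that median was -0.06, with 15 members below and 9 above.

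Promoter sequences are shown for ATF3, the immediate-early gene with the smallest p, and for DUSP1, an immediate-early phosphatase gene whose promoter holds a cAMP response element. TXNIP and PIK3IP1, from the list of FOXO targets and PI3K feedback genes, are shown because their promoters hold a FOXO element. Each runs 300 bases, 250 before to 50 after a RefSeq transcript start of GRCh38.p14, 5′ to 3′ on the gene's strand, and capitals mark the element found. ATF3, TXNIP and PIK3IP1 have more than 1 RefSeq start, and 1 is shown. The ATF3 start shown lies inside the gene as annotated, downstream of the start at chr1:212565157-212565456. That upstream promoter also held none of the 3 elements. Only these windows of ATF3 were searched. Whether other promoter sequence of the gene, such as that between them, holds an element was not tested. Which start was used in these cultures was not tested. The letters searched, on both strands, were TGACGTCA for the cAMP response element, GTAAACA for FOXO and TGACTCA for AP-1, and no 2 of them overlap in these promoters.
ATF3, chr1:212614768-212615067, plus strand, none of the 3 elements: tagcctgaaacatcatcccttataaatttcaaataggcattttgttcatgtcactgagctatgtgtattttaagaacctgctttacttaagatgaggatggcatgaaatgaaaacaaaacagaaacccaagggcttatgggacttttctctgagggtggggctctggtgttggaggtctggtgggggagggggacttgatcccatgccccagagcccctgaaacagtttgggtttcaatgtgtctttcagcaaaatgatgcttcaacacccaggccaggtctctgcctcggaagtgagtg
DUSP1, chr5:172771146-172771445, minus strand: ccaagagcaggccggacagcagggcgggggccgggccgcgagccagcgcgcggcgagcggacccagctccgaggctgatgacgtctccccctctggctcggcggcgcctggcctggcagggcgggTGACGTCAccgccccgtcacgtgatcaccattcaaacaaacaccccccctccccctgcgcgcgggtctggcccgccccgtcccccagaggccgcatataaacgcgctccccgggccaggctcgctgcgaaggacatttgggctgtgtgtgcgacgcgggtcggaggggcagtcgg
TXNIP, chr1:145996530-145996829, minus strand: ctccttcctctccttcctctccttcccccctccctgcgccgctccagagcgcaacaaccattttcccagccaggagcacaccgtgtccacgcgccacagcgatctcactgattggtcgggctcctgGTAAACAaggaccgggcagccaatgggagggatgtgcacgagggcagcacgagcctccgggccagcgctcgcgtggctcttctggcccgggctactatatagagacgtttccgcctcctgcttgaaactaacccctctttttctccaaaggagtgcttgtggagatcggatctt
PIK3IP1, chr22:31292439-31292738, minus strand: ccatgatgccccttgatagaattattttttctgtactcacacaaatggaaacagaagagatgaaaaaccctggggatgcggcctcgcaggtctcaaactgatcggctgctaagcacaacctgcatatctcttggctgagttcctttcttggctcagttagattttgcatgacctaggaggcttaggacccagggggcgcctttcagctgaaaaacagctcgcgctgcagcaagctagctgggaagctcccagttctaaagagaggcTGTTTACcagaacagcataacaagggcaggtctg

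The cAMP response element of DUSP1 begins 125 bases before the start and reads the same on both strands. The FOXO element begins 124 bases before the start in TXNIP and 16 bases after it in PIK3IP1, on the opposite strand, where it reads TGTTTAC on the strand printed. Of 35116 promoters of this length, 1.85% held the cAMP response element, 3.42% the FOXO element and 4.95% the AP-1 element. Among the 18 immediate-early genes with an entry, 2 held the cAMP response element (DUSP1 and JUND), 1 the FOXO element (JUNB) and 0 the AP-1 element. Of the 16 FOXO target genes with an entry, 3 held the FOXO element (BCL2L11, PIK3IP1 and TXNIP). In PIK3IP1 and TXNIP the start not shown held no FOXO element. A listed gene was counted if any of its starts held the element, while the percentages are per promoter. The 2 measures are therefore not alike and cannot show an excess. These matches are a description of the letters. DUSP1 was at 121 and 94.0 CPM in DMSO and at 84.8 and 88.7 CPM in Ly-294002 (-0.31, SE 0.12).

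Transcripts of the enzyme that Ly-294002 targets differed little from DMSO. Of 14 PI3K subunit genes 11 could be tested, 9 lay below DMSO and 2 above, and the median difference was -0.06. PIK3R1 (ENSG00000145675, chr5:68215720-68301821, plus strand), the main regulatory subunit of class I enzymes, was at 189 and 192 CPM in DMSO and at 146 and 150 CPM in Ly-294002. These groups did not overlap (-0.36, SE 0.11, interval -0.61 to -0.12, unadjusted p = 0.00576), and PIK3R1 was the only subunit with an unadjusted p under 0.05. The other compounds had PIK3R1 between 139 and 194 CPM, and Ly-294002 differed from their mean by -0.06 (SE 0.09, interval -0.25 to 0.12).

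The catalytic subunit PIK3CA was at 83.9 and 93.2 CPM in DMSO and at 88.4 and 88.4 CPM in Ly-294002, so that the DMSO values lay on either side (0.00, SE 0.12, interval -0.26 to 0.25). PIK3CB differed by -0.06 (SE 0.11) and PIK3CD, the subunit best known from white blood cells, by 0.26 (SE 0.15). PIK3C3, the class III enzyme of endosomes and autophagy, differed by -0.13 (SE 0.09), and its partner PIK3R4 by -0.13 (SE 0.09). PIK3CG, PIK3R5 and PIK3R6, which encode a catalytic subunit and its partners in white blood cells, were too low to be tested.

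Downstream of the enzyme, the pathway genes lay on both sides of DMSO. AKT1 differed by 0.17 (SE 0.12), AKT2 by 0.08 (SE 0.11) and MTOR by 0.06 (SE 0.09). The insulin receptor gene INSR differed by -0.19 (SE 0.13) and IRS2, which links the receptor to PI3K, by -0.10 (SE 0.22). Over the 33 genes of PI3K, AKT and mTOR signalling, 17 lay above DMSO and 16 below, with a median of 0.00, and 0 had an unadjusted p under 0.05.

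FOXO targets and feedback genes, which FOXO factors are known to induce when AKT is inactive, lay mostly below DMSO. Of 19 tested members of 21, 15 lay below and 4 above, with a median of -0.10, and the 2 with an unadjusted p under 0.05 were both lower. These were BCL6, a transcriptional repressor (-0.32, SE 0.12), and KLF6 (-0.26, SE 0.11), which is also in the immediate-early list. TXNIP, which binds thioredoxin and limits glucose uptake, was at 22.8 and 12.6 CPM in DMSO and at 19.2 and 79.6 CPM in Ly-294002. Its spread within Ly-294002 exceeded the difference between groups (1.48, SE 1.31). The median of the FOXO list was -0.04 in Ly-294002 1 and -0.20 in Ly-294002 2, and in the other compounds it ran from -0.15 to -0.01 against the same DMSO libraries. Differences near 0 were found for CCNG2, a cyclin gene (-0.06, interval -0.32 to 0.20), BCL2L11, a cell death gene (0.05, interval -0.17 to 0.27) and CDKN1B, the cell cycle inhibitor p27 (0.10, SE 0.14). FOXO1 differed by 0.22 (SE 0.29), FOXO3 by -0.11 (SE 0.14) and PIK3IP1, an inhibitor of the enzyme, by -0.09 (SE 0.36).

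**Figure D2:**
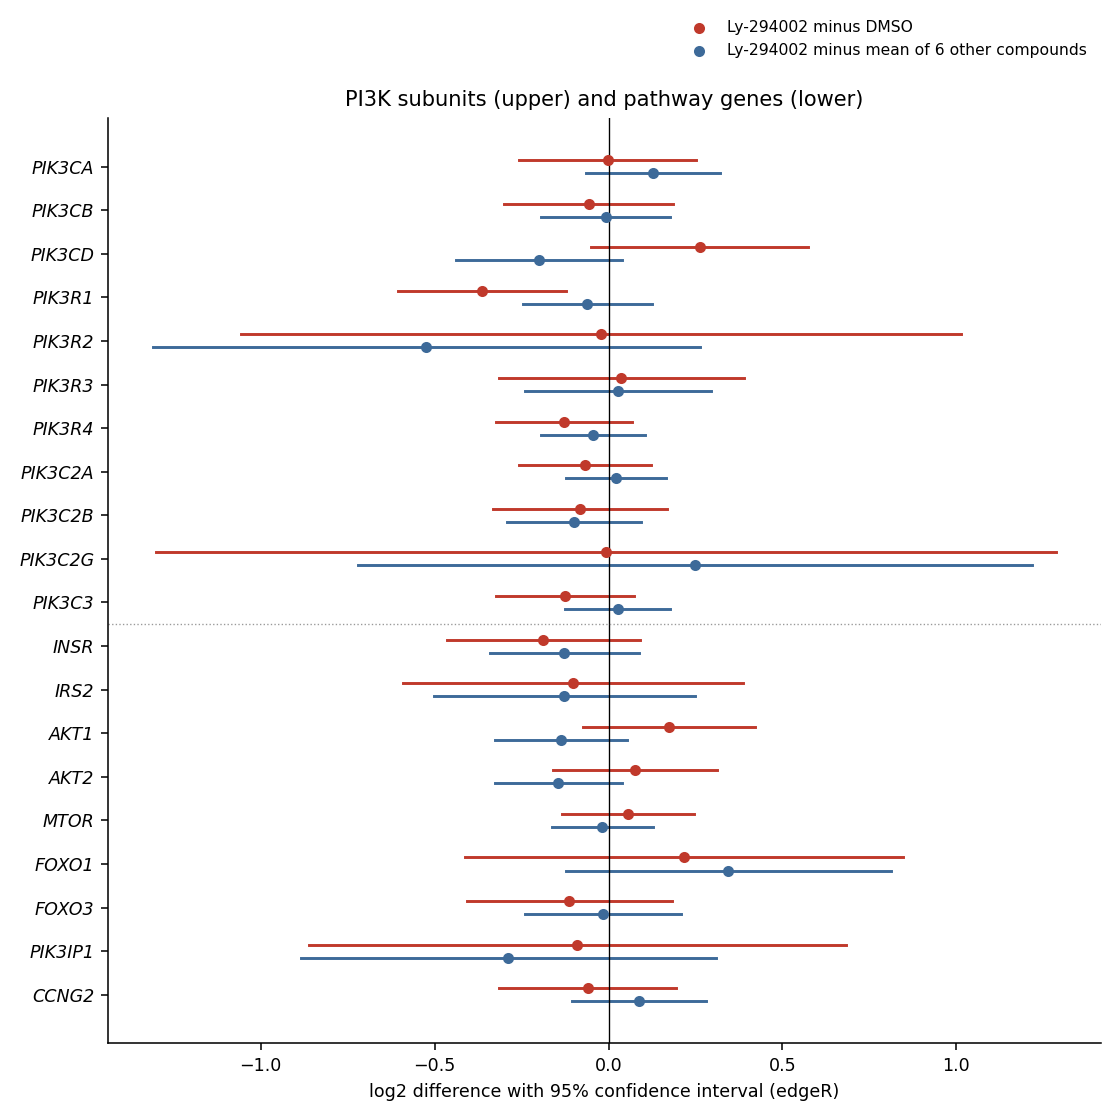
Log2 difference (points) with 95% confidence interval (lines) from edgeR for the 11 tested PI3K subunits and for 9 pathway genes, as Ly-294002 minus DMSO in red and minus the mean of the 6 other compounds in blue. PIK3R1 against DMSO (-0.36) is the one value plotted whose interval does not hold 0.

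Of the 20 genes named for the smallest p against DMSO, PRSS1 had the smallest. It encodes trypsinogen, a digestive enzyme of acinar cells (ENSG00000204983, chr7:142749468-142753076, plus strand), and was at 1.44 and 1.38 CPM in DMSO and at 0.195 and 0.236 CPM in Ly-294002. These were 33 and 36 reads against 6 and 6, and the 12 libraries of the other compounds held 0.555 to 1.45 CPM. PRSS1 thus lay below all 14 other libraries, with a difference of -2.69 from DMSO (SE 0.50, interval -3.76 to -1.62) and of -2.26 from the 6 compounds (SE 0.43). Trypsinogen genes are near-identical copies of each other, so reads could be split between them. Of 12 acinar genes 5 could be tested, 3 above and 2 below DMSO.

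Several others of the 20 showed a like difference from DMSO in the other compounds. SLC16A11, of the monocarboxylate transporter family, was at 0.218 and 0.192 CPM in DMSO and at 1.04 and 1.10 CPM in Ly-294002 (2.36, SE 0.54). The other compounds differed from the same DMSO libraries by 1.406 to 2.996, and Ly-294002 from their mean by 0.11 (SE 0.33). KRT6A, a keratin of stratified epithelium with close copies in the genome, rested on 2 and 6 reads in DMSO and 37 and 47 in Ly-294002 (3.19, SE 0.73). KLHL4 was at 2.74 and 2.07 CPM in DMSO and at 0.651 and 0.589 CPM in Ly-294002 (-1.94, SE 0.42), within the 0.381 to 1.95 CPM of the other compounds.

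Signalling genes among the 20 included P2RY1, a receptor for ADP, at 22.9 and 25.8 CPM in DMSO and at 15.01 and 15.63 CPM in Ly-294002. P2RY1 lay below all 14 other libraries (-0.67 against DMSO, SE 0.15, and -0.28 against the 6 compounds, SE 0.12). PDE10A, which degrades cyclic nucleotides, lay below DMSO (-0.39, SE 0.09), as did SLITRK4, a neuronal membrane protein gene (-0.81, SE 0.20), and MPHOSPH10, of the ribosomal RNA processing complex (-0.47, SE 0.12). SELENON, of the endoplasmic reticulum (0.40, SE 0.09), UGT2B10, a glucuronosyltransferase gene (0.99, SE 0.23), and FHOD1, an actin regulator (0.59, SE 0.15), lay above. From PDE10A to FHOD1, the 6 other compounds lay on the same side of the same DMSO libraries. They differed by -0.61 to -0.27 in PDE10A, -0.87 to -0.35 in SLITRK4 and -0.61 to -0.26 in MPHOSPH10. The ranges were 0.26 to 0.61 in SELENON, 0.32 to 1.14 in UGT2B10 and 0.23 to 1.03 in FHOD1. Against their mean, Ly-294002 differed by 0.09, -0.25, -0.10, -0.06, 0.27 and 0.07, in that order. The long noncoding RNA ENSG00000262228, which overlaps GLOD4 on the same strand, was at 3.97 and 4.63 CPM in Ly-294002, above all 14 other libraries (1.53 against DMSO, SE 0.29).

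Endocrine genes lay lower in 1 of the 2 Ly-294002 libraries. The median of 19 tested beta cell genes was -0.57 against DMSO, but -0.81 in Ly-294002 1 and 0.07 in Ly-294002 2. Without Ly-294002 1 it was -0.13, and without DMSO 1 it was 0.20. CHGA, a granule protein gene, was at 170 and 90.2 CPM in DMSO and at 35.1 and 102 CPM in Ly-294002, so the groups overlapped (-0.93, SE 1.40). NKX6-1, a beta cell transcription factor, was at 6.58 and 3.60 CPM in DMSO and at 0.619 and 2.08 CPM in Ly-294002 (-1.93, SE 1.64, interval -5.67 to 1.80). NEUROD1 (-0.73, SE 1.26), INSM1 (-1.34, SE 1.49), SST (-0.84, SE 1.40), GCG (-0.38, SE 1.12) and INS (-0.17, SE 1.15) had SEs above 1 as well.

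Duct and progenitor genes lay mostly on the lower side. Of 21 tested, 14 lay below DMSO, 9 of them without overlap, with a median of -0.13, and SOX9 and SLC4A4 had an unadjusted p under 0.05. SLC4A4, the bicarbonate transporter of duct cells, was at 112 and 114 CPM in DMSO and at 85.0 and 81.4 CPM in Ly-294002 (-0.44, SE 0.16). ONECUT1, a progenitor transcription factor, was at 142 and 145 CPM in DMSO and at 65.1 and 101 CPM in Ly-294002 (-0.79, SE 0.37). The keratins KRT19 (0.01, SE 0.10), KRT8 (0.02, SE 0.10) and KRT18 (0.03, SE 0.09) lay near DMSO. SOX9-AS1, the antisense RNA over SOX9, was at 0.651 and 0.668 CPM in Ly-294002, below all 14 other libraries, and without a stated strand setting its reads cannot be told apart from those of SOX9.

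All 13 mitochondrially encoded genes lay below DMSO in both Ly-294002 libraries, without overlap, while 0 had an unadjusted p under 0.05. Their median difference was -0.25. The share of reads in genes of the mitochondrial genome was 2.661% and 2.843% in the DMSO libraries, the highest of the 16 libraries. MT-ND6, which encodes a subunit of complex I of the respiratory chain, was at 432 and 577 CPM in DMSO and at 323 and 346 CPM in Ly-294002 (-0.59, SE 0.30). The other compounds' medians ran from -0.24 in epirizole to -0.79 in rimonabant against the same DMSO libraries. Against their mean, Ly-294002 lay above in 13 of 13 genes with a median of 0.22. RN7SL1, a signal recognition particle RNA that was listed as a sign of library and RNA quality and has near-identical copies, was at 6564 and 6353 CPM in Ly-294002 and at 5236 and 3719 CPM in DMSO (0.53, SE 0.20). It differed from DMSO by 0.56 to 1.22 in the other compounds, and its part in the mitochondrial difference was not tested. Reads of these genes can be split with nuclear copies of the mitochondrial genome.

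Hypoxia and glycolysis genes and the amino acid stress response also lay lower against DMSO, and more so in Ly-294002 2. Of 23 hypoxia and glycolysis genes 19 lay below DMSO with a median of -0.19, which was -0.07 in Ly-294002 1 and -0.36 in Ly-294002 2. PGK1, a glycolytic kinase gene, was at 364 and 421 CPM in DMSO and at 326 and 268 CPM in Ly-294002 (-0.40, SE 0.18). Of 21 amino acid stress genes 17 lay below with a median of -0.24, which was -0.05 and -0.36 by library. ASNS, asparagine synthetase, was at 9.54 and 8.97 CPM in DMSO and at 8.30 and 5.14 CPM in Ly-294002 (-0.46, SE 0.24). Without Ly-294002 2 the 2 medians were -0.08 and -0.06. Against the same DMSO libraries, the hypoxia and glycolysis median was 0.14 in vardenafil and -0.48 to -0.12 in the other 5 compounds, and the amino acid stress median was 0.21 in vardenafil and -0.23 to -0.03 in the other 5. Against the mean of the 6, Ly-294002 had a hypoxia and glycolysis median of -0.01, with 11 above and 12 below, and an amino acid stress median of -0.08.

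**Figure D3:**
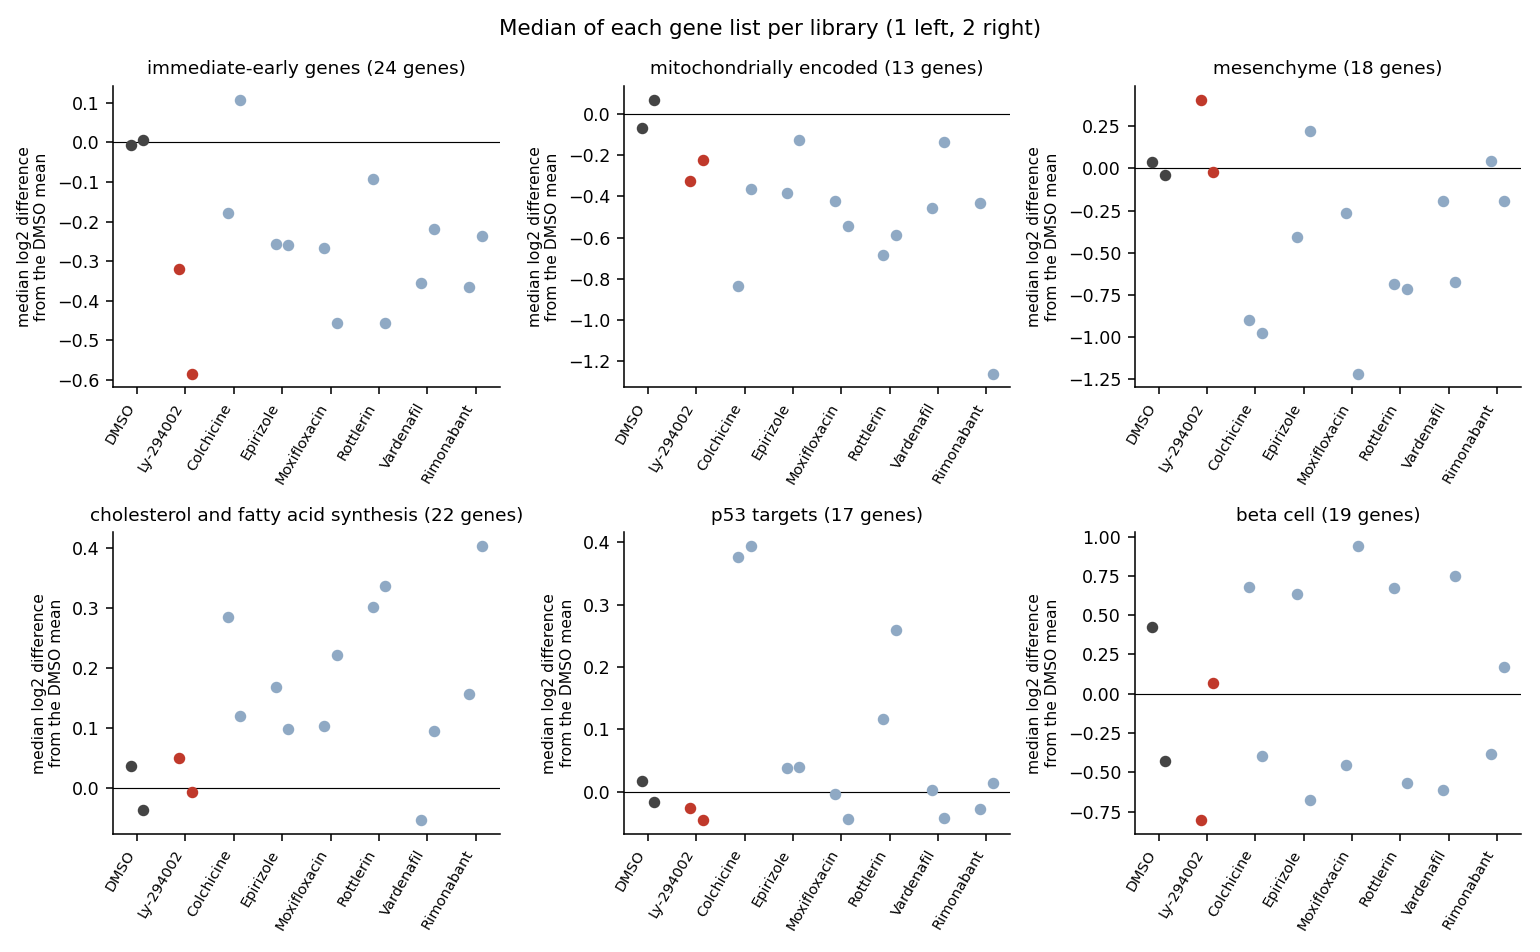
Median log2 difference from the mean of the 2 DMSO libraries over the tested members of 6 gene lists, 1 point per library, with Ly-294002 in red, DMSO in dark grey and the other compounds in grey-blue. Both Ly-294002 libraries sit below DMSO for immediate-early (-0.32 and -0.58) and mitochondrially encoded genes (-0.33 and -0.22), and they sit apart from each other for beta cell genes (-0.81 and 0.07).

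Set against the mean of the 6 other compounds, mesenchymal genes lay higher in Ly-294002 and most sterol synthesis and p53 target genes lower, and for several of the leading genes Ly-294002 lay close to DMSO. The edgeR test called 0 of 24515 genes (0%), with a smallest adjusted p of 0.314, and had 953 genes higher (3.89%) and 904 lower (3.69%) at an unadjusted p under 0.05. DESeq2 called 18 genes (0.0734%), 12 higher and 6 lower, and gave no adjusted p for 3327 genes. With epirizole left out of the background, edgeR called 1, RUNX2 (1.41, SE 0.18, adjusted p = 0.0482). Over all tested genes 51.1% lay above the 6 compounds and the median difference was 0.01.

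RUNX2, a transcription factor of bone and mesenchymal cells (ENSG00000124813, chr6:45328157-45664349, plus strand), had the smallest p. It was at 8.76 and 6.83 CPM in Ly-294002, at 6.14 and 5.33 in DMSO and at 1.76 to 7.83 in the other compounds, with a median of 3.34. The difference was 1.23 (SE 0.20, interval 0.81 to 1.65, unadjusted p = 1.61e-05, edgeR adjusted p = 0.314, DESeq2 adjusted p = 0.00200). Against DMSO it was 0.44 (SE 0.28). Among the other compounds Epirizole 2 alone reached the Ly-294002 range.

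CDKN1A, the cell cycle inhibitor p21 (ENSG00000124762, chr6:36676460-36687339, plus strand), was at 49.3 and 53.6 CPM in Ly-294002 and at 53.3 and 47.4 CPM in DMSO. All 12 libraries of the other compounds lay above, from 54.6 to 114 CPM. Ly-294002 differed from their mean by -0.46 (SE 0.08, interval -0.63 to -0.29) and from DMSO by 0.03 (SE 0.10, interval -0.18 to 0.25). Over the 17 p53 target genes 15 lay below the 6 compounds, 6 of them with an unadjusted p under 0.05, and the median was -0.11. Against DMSO the median was -0.01. Colchicine and rottlerin had the highest medians of this list against DMSO, at 0.35 and 0.17, and without colchicine the Ly-294002 median against the rest was -0.07, with 10 of 17 below.

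For further genes of smallest p, both DMSO and Ly-294002 lay on the same side of the mean of the other compounds. LAMA4, a laminin chain of basement membranes, was at 6.84 and 3.93 CPM in Ly-294002, at 5.53 and 6.63 in DMSO and at 0.625 to 6.71 in the other compounds, with a median of 2.36 (1.53, SE 0.29). CACNA1C, a calcium channel subunit gene, was at 52.8 and 37.5 CPM against a range of 19.7 to 42.4 (0.66, SE 0.13). TMEM160, at 1.66 and 0.903 CPM, lay below the 2.20 to 4.70 CPM of all 12 other-compound libraries (-1.22, SE 0.26), as DMSO did at 1.13 and 0.920. HES4, a Notch-responsive repressor (-1.07, SE 0.23), and ZNF579 (-0.58, SE 0.13) did so too. SHISA2 (1.08, SE 0.23), COLEC12, a scavenger receptor gene (0.89, SE 0.20), TRPS1, a transcription factor (0.39, SE 0.08), and TMEM119 (1.40, SE 0.28) lay above the mean of the 6.

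IFI44 and ANGPT1 lay above DMSO as well as above the other compounds. IFI44, an interferon-induced gene, was at 1.40 and 1.92 CPM in Ly-294002, at 0.784 and 1.03 in DMSO and at 0.0344 to 0.741 elsewhere (2.77 against the 6 compounds, SE 0.52, and 0.86 against DMSO, SE 0.74). These were 43 and 49 reads in Ly-294002. In IFI44 both DMSO libraries also lay above every library of the other compounds. The IFI44 difference from DMSO was little larger than its SE. A list of interferon and inflammation genes, which does not hold IFI44, had 14 of 17 tested members below the 6 compounds. ANGPT1, which encodes a ligand of the vascular receptor TEK, was at 12.4 and 13.6 CPM in Ly-294002, at 9.58 and 8.74 in DMSO and at 4.96 to 10.3 elsewhere (0.73, SE 0.14, and 0.51, SE 0.19).

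**Figure D4:**
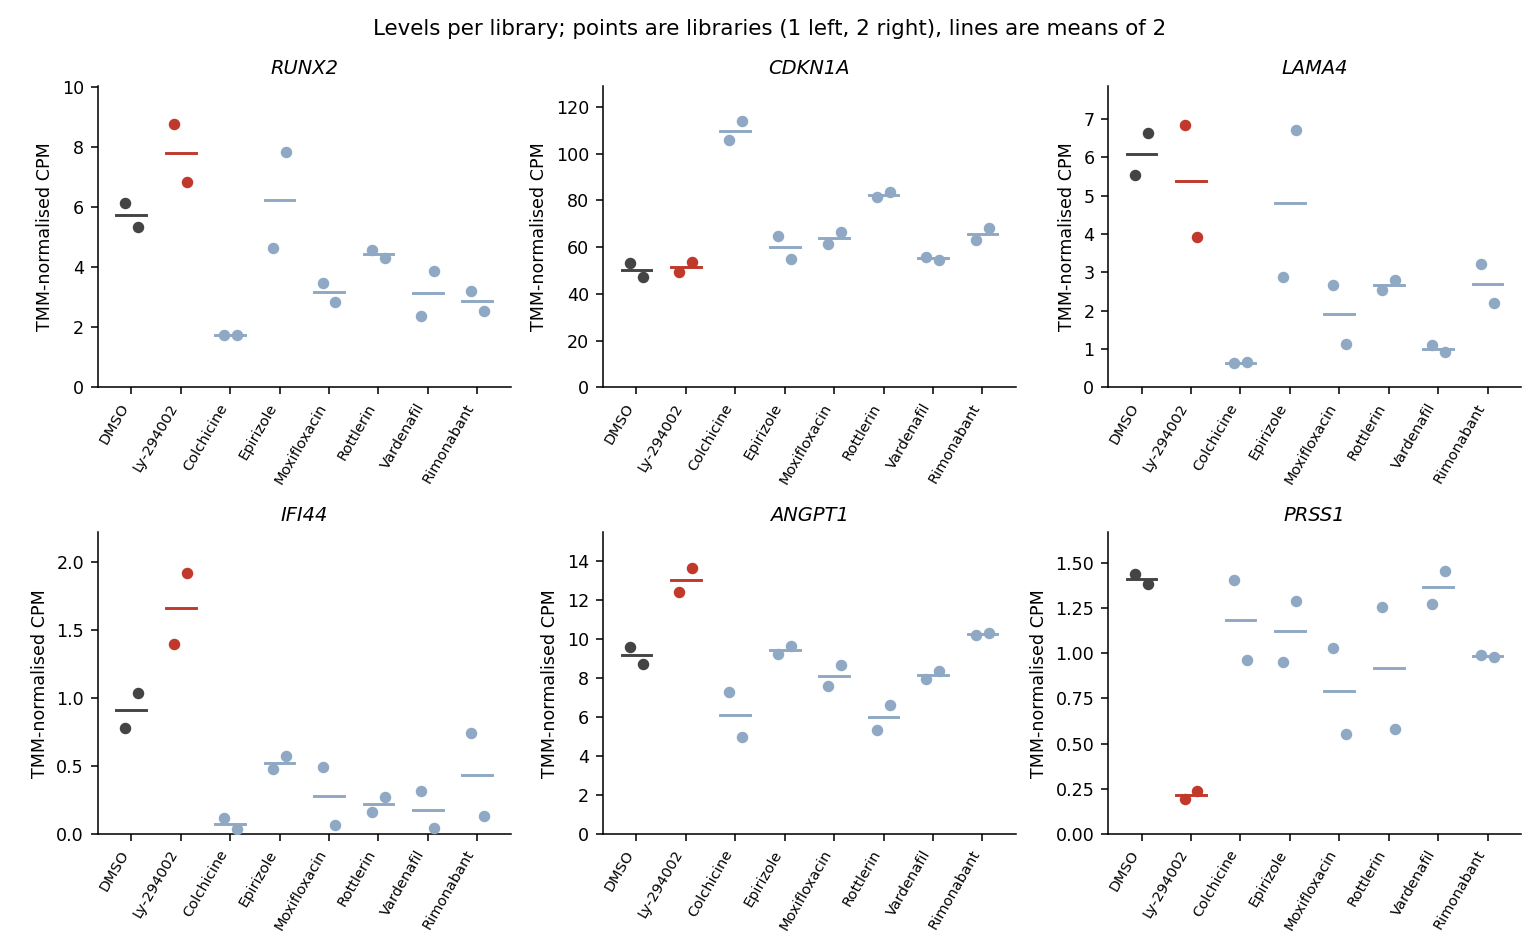
TMM-normalised CPM of RUNX2, CDKN1A, LAMA4, IFI44, ANGPT1 and PRSS1 in each of the 16 libraries (points) with the mean of each group of 2 (lines), on axes that start at 0. CDKN1A in Ly-294002 (49.3 and 53.6) sits with DMSO, below all 12 libraries of the other compounds, whereas ANGPT1 and IFI44 sit above and PRSS1 below all 14 other libraries.

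Mesenchymal genes, those of collagen-making stromal cells, all lay above the 6 compounds. This held for 18 of 18, and 10 had an unadjusted p under 0.05, with a median of 0.69. COL6A3, a collagen chain, was at 303 and 194 CPM in Ly-294002, at 189 and 179.8 in DMSO and at 54.7 to 254 in the other compounds (1.03, SE 0.33). POSTN, a matrix protein, was at 148 and 128 CPM against 40.6 to 157 (0.85, SE 0.22), and PRRX1, a mesenchymal transcription factor, at 65.6 and 46.5 CPM against 5.20 to 42.4 (1.32, SE 0.49). Against DMSO the median of the list was 0.25 with 0 members at an unadjusted p under 0.05, and it was 0.41 in Ly-294002 1 and -0.02 in Ly-294002 2. Among the 6 compounds the medians against DMSO ran from -0.88 in colchicine to -0.03 in epirizole. The summed level of all 18 genes was 4756 and 3725 CPM in Ly-294002, 3707 and 3411 in DMSO and 2305 to 4346 in the other compounds.

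The mesenchymal difference from the 6 compounds was larger in Ly-294002 1. By library the median was 0.90 in Ly-294002 1 and 0.40 in Ly-294002 2, and with Ly-294002 1 left out it was 0.41. Without colchicine the median was 0.62, and 4 genes had an unadjusted p under 0.05. In the other contrast, against DMSO, the median was 0.25, and with the endocrine score as a term it was 0.03. These values do not bear on the difference from the 6 compounds.

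Cholesterol and fatty acid synthesis genes, which SREBP factors control and mTOR promotes, lay below the 6 compounds in 21 of 22 cases. The median was -0.18 and 12 had an unadjusted p under 0.05, all lower. DHCR7, a late enzyme of cholesterol synthesis, was at 81.5 and 67.5 CPM in Ly-294002, below all 12 libraries of the other compounds at 81.9 to 116 (-0.33, SE 0.08). SREBF2, the sterol-sensing transcription factor, was at 237 and 235.5 CPM, also below all 12, at 246.5 to 322 (-0.19, SE 0.06). MVD (-0.32, SE 0.09) and FASN (-0.30, SE 0.14) lay on the same side. The FASN difference was -0.13 with a GC offset and -0.12 with the endocrine score as well. Without Ly-294002 2, 3 of the 22 had an unadjusted p under 0.05, with a median of -0.18.

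Against DMSO the sterol genes lay on both sides. The median of the list was 0.03, with 12 above and 10 below, and SREBF2 was at 234 and 219.5 CPM in DMSO (0.06, SE 0.08, interval -0.11 to 0.23). In the other compounds the medians against DMSO ran from 0.02 in vardenafil to 0.33 in rimonabant. CYP51A1, a sterol demethylase gene, was the list member with an unadjusted p under 0.05 against DMSO, at 5.05 and 4.12 CPM in Ly-294002 and at 3.40 and 2.99 CPM in DMSO (0.52, SE 0.21).

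Cell cycle genes lay above the 6 compounds in 22 of 23 cases, with a median of 0.22, but 1 had an unadjusted p under 0.05. Against DMSO 17 of 23 lay above, with a median of 0.11. CCND1, the cyclin that growth factor signalling induces, went the other way, at 336 and 376 CPM in DMSO and at 241 and 236 CPM in Ly-294002 (-0.58, SE 0.20). The 6 other compounds also lay below the same DMSO libraries in CCND1, by -0.46 to -0.08. Ly-294002 differed from their mean by -0.30 (SE 0.16, interval -0.64 to 0.05).

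Genes in which both Ly-294002 libraries lay outside the range of all 14 others were few. There were 197 above (0.804%) and 141 below (0.575%), 338 in all. The same count was 1747 for DMSO, 1291 for rimonabant, 654 for colchicine, 501 for vardenafil, 390 for rottlerin, 220 for moxifloxacin and 147 for epirizole. Every group of 2 libraries thus had such genes, and no test was made on these counts. The genes named next are a description. Of the 10 with the widest gap above, IFI44 and ANGPT1 are given above, and GNAT1, the rod transducin gene (2.41 and 2.71 CPM), and HESX1, a homeobox gene (1.17 and 1.06 CPM), were the other coding genes. Among the 10 with the widest gap below were PRSS1, LYZ, the lysozyme gene, CA12, a carbonic anhydrase gene, and SOD3, an extracellular antioxidant enzyme gene.

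LYZ was at 2.08 and 1.85 CPM in Ly-294002 against 2.57 to 6.23 in the 14 others (-1.01 against the 6 compounds, SE 0.31). CA12 was at 1.04 and 0.982 CPM against 1.20 to 4.62 (-1.32, SE 0.49), and SOD3 at 0.782 and 1.14 CPM against 1.40 to 4.18 (-1.26, SE 0.43). GPR176, an orphan receptor gene, was at 0.521 and 0.471 CPM against 0.678 to 1.84 (-1.17, SE 0.35).

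**Figure D5:**
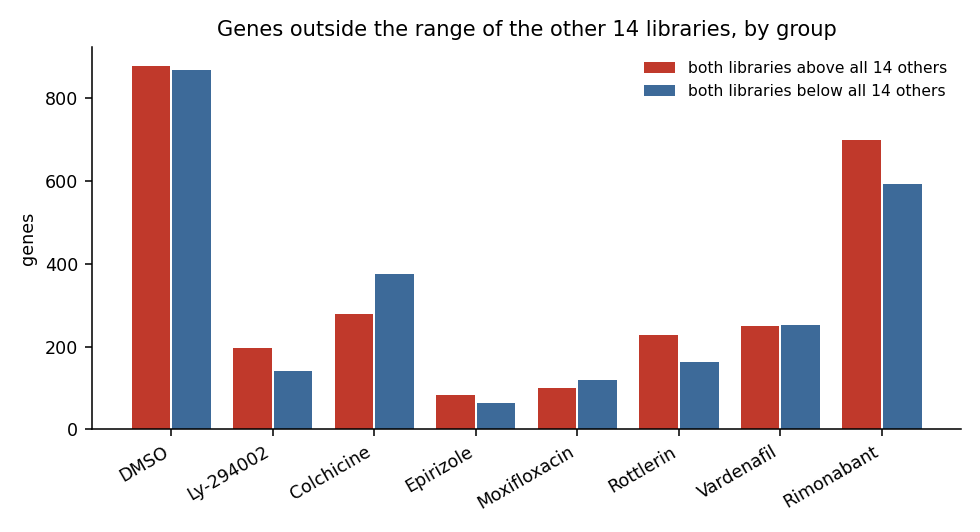
Number of tested genes, by group, in which both libraries lay above (red) or below (blue) all 14 other libraries, as bars from 0. Ly-294002, with 197 above and 141 below, sits under DMSO (879 and 868) and near rottlerin (228 and 162).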

How the data were processed

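The authors deposited 1 table of unnormalised read counts by gene for the 16 libraries, made from paired-end, ribosome-depleted total RNA (KAPA RNA HyperPrep with RiboErase, per the labels' protocols). Those protocols name FastQC 0.11.8, Trimmomatic 0.38, STAR 2.7.1a, Picard 2.20.4, StringTie 2.0.4 and featureCounts 1.6.0 or HTSeq, and the submitters' processing notes name HTSeq and GRCh38. The annotation release and the strand setting are not given in the sources used here.

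Of 62754 genes, 24515 passed edgeR's filterByExpr, and they held 99.92% of reads. Counts were scaled by TMM and fitted in edgeR 4.0.16 (R 4.3.3, limma 3.58.1) with 1 coefficient per group over all 16 libraries, which left 8 residual degrees of freedom and a common biological coefficient of variation of 0.165. The quasi-likelihood test, two-sided with Benjamini-Hochberg adjustment over all 24515 genes, gave 2 contrasts, Ly-294002 minus DMSO and Ly-294002 minus the mean of the 6 other compounds. The SE is the size of the log2 difference divided by the square root of F, and intervals are 95%. Gene positions are from GENCODE 29, and promoters are from RefSeq. Figures were drawn with matplotlib 3.10.9.

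Genes named were, as none passed, the 20 of smallest p in each contrast with a mean of at least 1 CPM, the 10 with the widest gap on each side of all other libraries, the 4 markers, up to 4 members of each of 33 lists with the smallest p against DMSO, the PI3K subunits, and fixed islet and pathway panels. Other list members named as examples, such as EGR1, MYC, COL6A3, POSTN, PRRX1, SREBF2 and the keratins, were chosen after their values were seen. The members and lists were chosen with earlier results of these data known. Alternatives were DESeq2 1.42.0, other scalings and filters, a replicate block, each library left out, each compound left out, an endocrine score and a GC offset. Some genes that the naming rule selects are not reported here.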

Additional observations from a re-analysis of the deposited data

How the results depend on the processing

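Counts of genes past the threshold stayed at 0 in edgeR against DMSO with each Ly-294002 and DMSO library left out in turn (range 0 to 0), with 635 to 1235 genes at an unadjusted p under 0.05, and against the 6 compounds with each Ly-294002 library left out (range 0 to 0), with 967 to 1308. The 12 compound libraries were left out only by compound. With a replicate block the counts were 0 and 0, but replicate numbers did not pair the libraries (28 correlations between groups, -0.28 to 0.23, 5 over 0.1). Without a filter on low counts, edgeR called 169 genes against DMSO and 431 against the 6 compounds, in a fit whose median prior degrees of freedom were infinite against 7.04, and the SE of CHGA was 0.115 against 1.40. With only the libraries of the comparison, edgeR called 1 gene against DMSO, SLC38A4 (-2.16, SE 0.24, adjusted p = 0.0386). With the endocrine score and GC offset together, chosen after seeing the data, edgeR also called 1, ZFP36L2 (-0.43, SE 0.058, adjusted p = 0.04998). Against the 6 compounds, 1 gene was called without epirizole and 18 by DESeq2. Outside the 12 compound libraries alone, without DMSO, lay 389 genes above and 375 below, also chosen after seeing the data. Some named genes changed sign against DMSO and moved by more than 1 SE. With the GC offset LGALS3BP was -0.0751, with score and offset -0.0820, and MGAT4B -0.12. Over the fits that leave out 1 library each, the lowest and highest values were as follows. Without Ly-294002 1 the sign turned for SIX2 (-0.19 to 1.71), TRPS1 (-0.0197 to 0.23), TMEM160 (-0.18 to 0.70), CPB1 (-2.44 to 4.04), VWF (-0.20 to 0.70), TAC1 (-2.12 to 2.79), PIK3CB (-0.18 to 0.0601) and CACNA1C (-0.20 to 0.29). Without Ly-294002 2 it turned for BAX (-0.0287 to 0.28), RPS18 (-0.20 to 0.0310), IRS2 (-0.38 to 0.13) and PDX1 (-0.57 to 0.52). Without DMSO 1 it turned for PPY (-2.73 to 3.16) and INS (-1.21 to 1.30), and without DMSO 2 for PIK3R3 (-0.16 to 0.26). Against the 6 compounds, ATF3 ran from -0.40 without Ly-294002 1 to 0.0017 without Ly-294002 2. The cause was not tested for these. With 2 libraries a group, the median SE against DMSO was 0.28.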
